A study of Mus musculus with 3 samples.

Results

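The miR-30 family was followed in retinas of C57BL/6 mice (C57BL/6J in the study's methods) aged 1 (P1), 7 (P7) or 17 (P17) postnatal days, through 10 mature microRNAs (miRNAs) picked by name from the 1915 miRNAs listed for each library. They are the 5p and 3p arms of the hairpins miR-30a, miR-30b, miR-30c, miR-30d and miR-30e, with miR-30c represented on the 3p side by miR-30c-2-3p. All 10 had reads at every age and all 10 were among the 648 miRNAs that averaged 1 RPM or more. According to the sample labels, retinas from 5 eyes were pooled for each age and 1 small RNA library was made from each pool. The 3 ages thus share strain and tissue, differ in age only as far as the labels state, and have no replicate library, so that no difference between ages could be tested against the spread between animals. The libraries held 11426320 to 12759995 miRNA reads. RPM (reads per 1e6 miRNA reads) is computed over these totals, so every RPM value is a share. The intervals given below are 95% intervals of counting error only, since no molecular identifiers are described and 1 molecule may give several reads.

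A miRNA hairpin is cut into a short duplex whose strands, the 5p and the 3p arm, can each be loaded into an Argonaute protein. Usually 1 arm, the guide, accumulates while the other, the passenger, is mostly degraded. The loaded miRNA finds messenger RNAs mainly through its seed, bases 2 to 8 from its 5′ end, so that miRNAs with the same seed can act on overlapping sets of messengers. The 5p arms of the miR-30 family are broadly expressed guide strands. In endothelial cells miR-30 is known to act on the messenger of the Notch ligand DLL4, which restrains vessel sprouting, and in epithelial cells on that of the transcription factor SNAI1.

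Mature sequences in RefSeq (GRCm38.p6) were matched by name for 6 of the 10 members, from hairpins miR-30a, miR-30c and miR-30e; miR-30b and miR-30d are named only. They are shown because the members differ by few bases and because the seed in capitals groups them, with the relative miR-384-5p and the other 3p arm of miR-30c, miR-30c-1-3p, for comparison.
mmu-miR-30a-5p: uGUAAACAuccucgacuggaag
mmu-miR-30c-5p: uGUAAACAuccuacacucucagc
mmu-miR-30e-5p: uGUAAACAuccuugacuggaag
mmu-miR-384-5p: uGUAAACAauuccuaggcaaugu
mmu-miR-30a-3p: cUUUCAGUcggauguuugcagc
mmu-miR-30e-3p: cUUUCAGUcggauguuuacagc
mmu-miR-30c-2-3p: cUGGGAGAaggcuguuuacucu
mmu-miR-30c-1-3p: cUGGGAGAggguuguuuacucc

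The 5p arms shown share the seed GUAAACA. Among the 1623 listed miRNAs that have a RefSeq sequence, only miR-384-5p carries the same seed beside miR-30a-5p, miR-30c-5p and miR-30e-5p. The 3p arms shown fall into a pair of seeds, UUUCAGU in miR-30a-3p and miR-30e-3p and UGGGAGA in both 3p arms of miR-30c. The seeds of both arms of miR-30b and miR-30d were not compared. Positions below are counted from 1 at the 5′ end. MiR-30a-5p and miR-30e-5p are identical in 21 of 22 bases and differ by C13U, and their 3p arms are also identical in 21 of 22 bases and differ by G18A. MiR-30a-5p and miR-30c-5p share their first 12 bases and differ in 5 of the 22 compared. How the authors assigned a read that fits more than 1 of these sequences is not given in the sources used here, so the split of reads between miR-30a and miR-30e is uncertain.

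The family is encoded by 3 pairs of hairpins. On chromosome 1 of GRCm38, the same build as mm10, Mir30a (23272269 to 23272339, plus strand) lies 19361 bases before Mir30c-2 (23291701 to 23291784), which overlaps an exon of Gm27028, a long intergenic non-coding RNA. On chromosome 4, Mir30e (120772606 to 120772697, minus strand) and Mir30c-1 (120769534 to 120769622) are 2983 bases apart inside Nfyc, the gene of a subunit of the transcription factor NF-Y, on its strand and outside its annotated exons. On chromosome 15, Mir30b and Mir30d lie 3697 bases apart on the minus strand, Mir30b overlapping an exon of Gm26621 and Mir30d exons of Gm20732 and Gm37296, genes with no protein-coding annotation. MiR-30c-5p has the same sequence at both of its loci, chr1:23291714-23291736 and chr4:120769584-120769606, and its reads therefore cannot be attributed to either pair. Its counts at P7 and P17 were odd numbers, so at least some of its reads were not counted once for each locus.

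The 5p arms made up most of the family at every age. Their summed reads, in order of age, were 601912, 614931 and 655056, or 5.27%, 4.82% and 5.62% of all miRNA reads. The 3p arms together had 35277, 25637 and 26697 reads, or 0.309%, 0.201% and 0.229%. Thus the summed 5p share was lowest at P7 and highest at P17, whereas the summed 3p share was highest at P1.

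The leading guide strand, mmu-miR-30d-5p, was at 19507 RPM (95% Wilson interval 19427 to 19588) at P1, 18554 RPM (18480 to 18628) at P7 and 21893 RPM (21809 to 21977) at P17. It ranked in place 13, 14 and 11 among all miRNAs of the respective library. Next came mmu-miR-30c-5p, the guide encoded at 2 loci, with 19043 RPM (18964 to 19123) at P1, 17347 RPM (17275 to 17419) at P7 and 19255 RPM (19176 to 19334) at P17. Its P1 and P17 levels were within 1.01-fold of each other. The reads of miR-30d-5p were 1.02 times those of miR-30c-5p at P1, 1.07 times at P7 and 1.14 times at P17, a difference beyond counting error at each age.

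A second tier was formed by the near-identical mmu-miR-30a-5p and mmu-miR-30e-5p. MiR-30a-5p was at 7177 RPM (7128 to 7226) at P1, 6039 RPM (5996 to 6081) at P7 and 8495 RPM (8442 to 8548) at P17. MiR-30e-5p was at 6111 RPM (6066 to 6156) at P1, 5374 RPM (5334 to 5415) at P7 and 5197 RPM (5156 to 5238) at P17. MiR-30a-5p was therefore lowest at P7 and highest at P17, while miR-30e-5p was highest at P1 and lowest at P17. The least abundant guide was mmu-miR-30b-5p, with 839 RPM (823 to 856) at P1, 878 RPM (862 to 895) at P7 and 1341 RPM (1320 to 1362) at P17. Its place among all miRNAs was 99, then 69 and then 55, the widest move of rank among the 5p arms. The order of the 5p arms, miR-30d, miR-30c, miR-30a, miR-30e, miR-30b, was the same in each library, and each neighbour differed from the next beyond counting error. Levels of different miRNAs also depend on how readily adapters join their ends, which was not measured here.

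**Figure D1:**
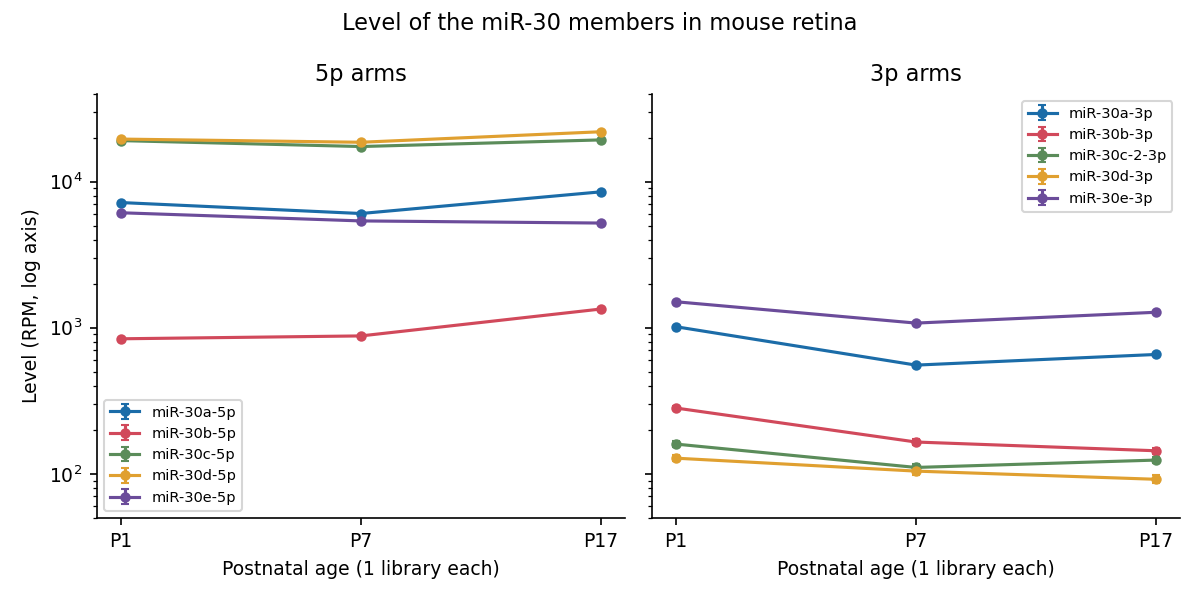
Level of each miR-30 member in RPM (log axis) at P1, P7 and P17, with the 5p arms on the left and the 3p arms on the right; points are single libraries and bars are 95% Wilson intervals, mostly smaller than the points. MiR-30d-5p and miR-30c-5p lie between 17347 and 21893 RPM, miR-30b-5p is higher at P17 than at P1, and all 3p arms are lower in RPM at P7 than at P1, though higher with size factors.

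The make-up of the 5p reads does not depend on how the libraries are scaled. Between P1 and P17 the part taken by miR-30d-5p went from 37.0% to 39.0%, that of miR-30a-5p from 13.6% to 15.1% and that of miR-30b-5p from 1.59% to 2.39%. The part of miR-30c-5p went from 36.2% to 34.3% and that of miR-30e-5p from 11.6% to 9.25%. At P7 the parts were 38.5% for miR-30d-5p, 36.0% for miR-30c-5p, 12.5% for miR-30a-5p, 11.2% for miR-30e-5p and 1.82% for miR-30b-5p. MiR-30d-5p and miR-30c-5p together thus gave most of the 5p reads of the family throughout. Only miR-30a-5p took its smallest part at P7, and the other 4 moved in a single direction over the 3 ages.

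**Figure D2:**
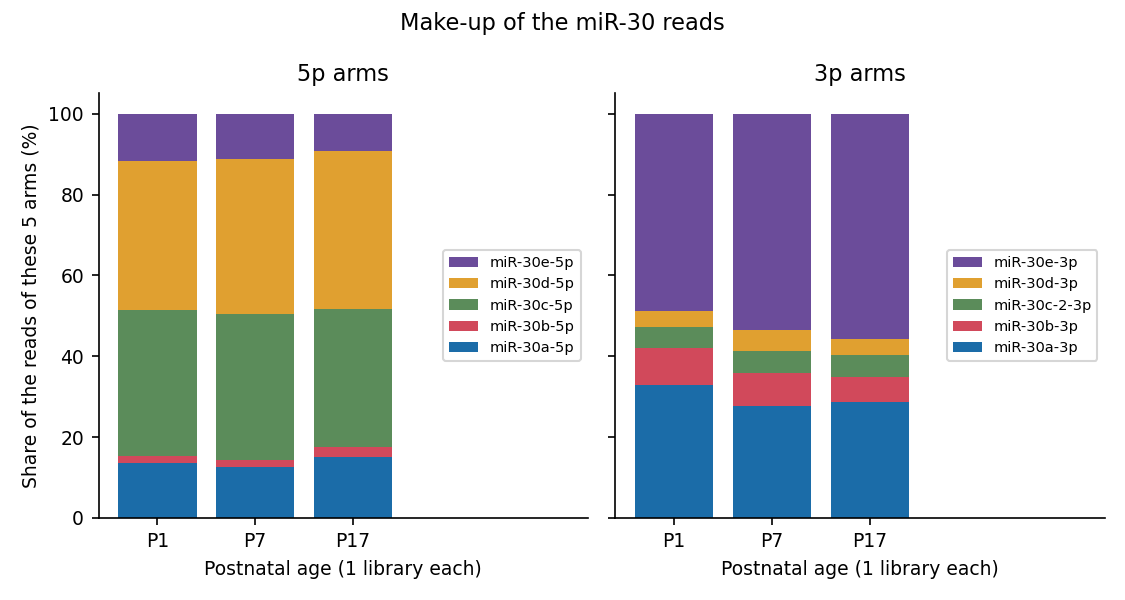
Share (%) of each member among the summed reads of the 5 listed 5p arms (left) and of the 5 listed 3p arms (right), with 1 bar for each age. MiR-30d-5p and miR-30c-5p fill most of the 5p bars, whereas miR-30e-3p and miR-30a-3p fill most of the 3p bars, and miR-30e-3p goes from 48.7% at P1 to 55.7% at P17.

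The order was different on the passenger side. The most abundant 3p arm was mmu-miR-30e-3p, with 1504 RPM (1481 to 1526) at P1, 1075 RPM (1057 to 1093) at P7 and 1274 RPM (1254 to 1295) at P17. Then followed mmu-miR-30a-3p, with 1014 RPM (996 to 1033) at P1, 554 RPM (542 to 567) at P7 and 656 RPM (641 to 670) at P17. At P1 both of these 3p arms had more reads than the guide miR-30b-5p, and at P17 miR-30b-5p had 1.05 times the reads of miR-30e-3p. The 3p arm of miR-30b, mmu-miR-30b-3p, was at 282 RPM (272 to 292) at P1, 165 RPM (158 to 172) at P7 and 144 RPM (137 to 151) at P17. Of the remaining passengers, mmu-miR-30c-2-3p was at 160 RPM (153 to 167) at P1, 111 RPM (105 to 117) at P7 and 124 RPM (118 to 131) at P17. The lowest member was mmu-miR-30d-3p, with 128 RPM (122 to 135) at P1, 104 RPM (98.9 to 110) at P7 and 91.8 RPM (86.4 to 97.4) at P17. Hence, among the 10 forms, the hairpin with the most abundant guide had the least abundant passenger. MiR-30c-2-3p and miR-30d-3p at P7 were the only neighbours in the order of the 10 members that did not differ beyond counting error, with a ratio of 1.06 (exact binomial interval 0.982 to 1.14).

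All 5 hairpins, with both loci of miR-30c taken as 1, gave more 5p than 3p reads, by very different margins. Of these, 4 gave relatively more 5p reads at P17 than at P1. The ratio of 5p to 3p reads within 1 library does not depend on scaling, although it is still a comparison of single libraries. At P1 miR-30b gave 9590 5p and 3220 3p reads, at P7 11205 and 2106, and at P17 15635 and 1677. Its ratio was thus 2.98 (exact binomial interval 2.86 to 3.10) at P1, 5.32 (5.08 to 5.58) at P7 and 9.32 (8.86 to 9.81) at P17, which is 3.13 times higher at P17 than at P1. As a log2 value this change was 1.65 (Woolf interval 1.55 to 1.74), of which 0.84 fell before P7 and 0.81 after it. In reads and in RPM the 5p arm was higher and the 3p arm lower at each later age, but with median-of-ratios size factors the log2 change of miR-30b-3p was 0.19 from P1 to P7 and 0.075 from P1 to P17, so the split of the change between the arms depended on the scaling.

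For miR-30a the ratio was 7.08 (6.94 to 7.22) at P1, 10.9 (10.6 to 11.2) at P7 and 12.96 (12.7 to 13.3) at P17. The log2 change from P1 to P17 was 0.87 (0.83 to 0.92), with 0.62 of it before P7. The neighbour of miR-30b on chromosome 15, miR-30d, had the largest ratio of the family, 152 (145 to 161) at P1, 178 (168 to 188) at P7 and 239 (225 to 254) at P17. Its log2 change was 0.65 (0.53 to 0.76), so that the ratio differed between the hairpins of this pair by a large factor at each age while it was higher at P17 in both. For miR-30c, 5p reads from both loci were set against miR-30c-2-3p, the 3p arm from chromosome 1 only. This ratio belongs to no single hairpin and would be lower with miR-30c-1-3p added. It was 119 (114 to 125) at P1, 157 (149 to 165) at P7 and 155 (147 to 163) at P17. The log2 change was 0.40 before P7 and -0.02 (-0.12 to 0.09) after it. MiR-30e took another course, with 4.06 (3.997 to 4.13) at P1, 5.00 (4.91 to 5.09) at P7 and 4.08 (4.01 to 4.15) at P17. It was higher at P7 only, and the P1 and P17 libraries did not differ beyond counting error, with a log2 change of 0.00487 (-0.03 to 0.04).

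**Figure D3:**
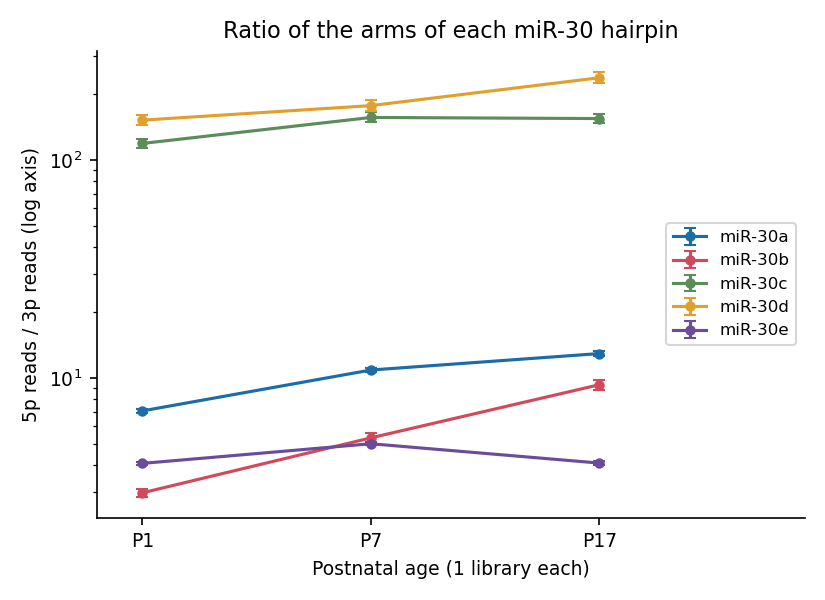
Ratio of 5p to 3p reads (log axis) of each hairpin at P1, P7 and P17. For miR-30c, 5p reads of both loci are set against miR-30c-2-3p only. Points are single libraries and bars are exact 95% binomial intervals of counting error. The ratio of miR-30b is 2.98 at P1 and 9.32 at P17, while that of miR-30e is 4.06 and 4.08 at these ages.

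Arm ratios varied widely between these libraries in general. In 190 hairpins for which 5p and 3p forms of the same name both passed the abundance filter, the median log2 change of the ratio from P1 to P17 was 0.16 and the middle 90% lay between -1.90 and 1.77. The ratio moved toward the 5p arm in 56.8% of them. MiR-30b was at percentile 91.1 of these hairpins, miR-30a at 76.3, miR-30d at 68.9 and miR-30e at 43.2. None of them lay outside the middle 90%, and miR-30c, at percentile 57.4 when set against the same hairpins, did not either.

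From P1 to P17 the ratio of miR-30a to miR-30e reads went opposite ways on the 2 arms, but not within either step. From P1 to P7 it was lower on both arms, with log2 changes of -0.06 (5p) and -0.39 (3p). From P7 to P17 it changed by 0.54 on the 5p side and by -0.004 (-0.06 to 0.05) on the 3p side. On the 5p side the ratio of miR-30a to miR-30e was 1.17 (1.16 to 1.19) at P1, 1.12 (1.11 to 1.14) at P7 and 1.63 (1.62 to 1.65) at P17. The log2 change from P1 to P17 was 0.48 (0.46 to 0.50). On the 3p side the ratio was 0.675 (0.659 to 0.691) at P1, 0.516 (0.501 to 0.531) at P7 and 0.514 (0.5003 to 0.529) at P17. Here the log2 change from P1 to P17 was -0.39 (-0.44 to -0.34). Since each arm of these hairpins differs by 1 base, both were also read together, an alternative chosen after the values were seen. Their joint ratio of 5p to 3p reads was 5.28, then 7.01 and then 7.09, a log2 change of 0.43 (0.40 to 0.45). The part that wrongly assigned reads play in the contrast between miR-30a and miR-30e was not tested.

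Compared by locus, with both arms summed and all forms of miR-30c left out, the chromosome 15 hairpins miR-30b and miR-30d gave 20756, 19702 and 23470 RPM in order of age. The chromosome 1 hairpin miR-30a gave 8191, 6593 and 9150 RPM. The chromosome 4 hairpin miR-30e gave 7614, 6449 and 6471 RPM. The ratio of miR-30a to the chromosome 15 hairpins was 0.395 (0.392 to 0.398) at P1, 0.335 (0.332 to 0.337) at P7 and 0.390 (0.387 to 0.393) at P17, so it was lower at P7 and nearly the same at P1 and P17. The ratio of miR-30e to the chromosome 15 hairpins was 0.367 (0.364 to 0.370) at P1, 0.327 (0.325 to 0.330) at P7 and 0.276 (0.274 to 0.278) at P17. Its log2 change from P1 to P17 was -0.41 (-0.43 to -0.40). It turned on the arm, however, with -0.43 from the 5p arms and 0.56 (0.48 to 0.63) from the 3p arms alone. The log2 change of the ratio of miR-30a to the chromosome 15 hairpins was likewise -0.02 (-0.03 to -0.00255) with both arms, 0.05 from the 5p arms and 0.17 from the 3p arms. A change in balance between the loci was therefore not the same for guides and passengers. These ratios use the same reads as the arm ratios above and are not separate evidence.

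**Figure D4:**
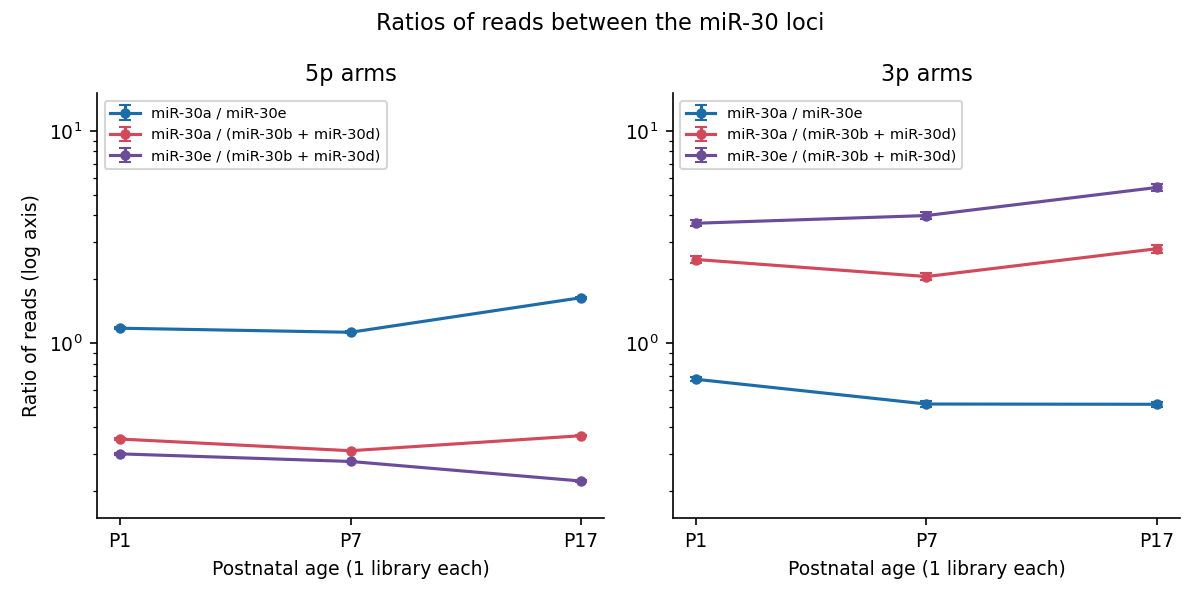
Ratios of reads between the hairpins of chromosome 1 (miR-30a), chromosome 4 (miR-30e) and chromosome 15 (miR-30b plus miR-30d) at each age (log axis), from the 5p arms on the left and the 3p arms on the right; points are single libraries with exact 95% binomial intervals. The ratio of miR-30e to the chromosome 15 hairpins is lower at P17 than at P1 for the 5p arms and higher for the 3p arms.

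Within pairs of neighbours the balance also moved. On chromosome 15 the reads of miR-30d-5p were 23.2 times those of miR-30b-5p at P1, 21.1 times at P7 and 16.3 times at P17. The passengers were in the opposite order, with miR-30d-3p at 0.454 times miR-30b-3p at P1, 0.632 times at P7 and 0.638 times at P17. For miR-30c only the 3p arms tell the loci apart. MiR-30c-1-3p, from chromosome 4 and outside the 10 listed forms, had 446, 325 and 269 reads in order of age, against 1825, 1411 and 1448 reads of miR-30c-2-3p from chromosome 1. The ratio of miR-30c-2-3p to miR-30c-1-3p was 4.09 (3.69 to 4.55) at P1, 4.34 (3.85 to 4.91) at P7 and 5.38 (4.72 to 6.15) at P17. Its log2 change was 0.40 (0.16 to 0.64) from P1 to P17 and 0.09 (-0.14 to 0.31) from P1 to P7, the latter not detectable at this depth. Adding miR-30c-1-3p to the passenger reads left the log2 change of the miR-30c arm ratio at 0.45, against 0.38 without it. Each passenger was also set against that of its neighbour. The reads of miR-30a-3p were 6.35 times those of miR-30c-2-3p at P1, 5.01 times at P7 and 5.28 times at P17, a log2 change of -0.27 (-0.37 to -0.16) over the whole span. On chromosome 4, miR-30e-3p had 38.5, 42.2 and 55.2 times the reads of miR-30c-1-3p, a log2 change of 0.52 (0.30 to 0.74). MiR-30f, listed from the strand opposite Mir30e, had 2, 1 and 0 reads in the same order; in the last library a count of 0 allows up to 0.257 RPM.

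None of the 10 members changed over 2-fold between any pair of ages on the log2(RPM + 1) scale. From P1 to P7, 0 of 10 were over 2-fold lower, where 44.8% of the 648 miRNAs were, and 0 were over 2-fold higher, where 3.09% were. From P7 to P17 the corresponding shares of all miRNAs were 11.6% lower and 14% higher, and from P1 to P17 they were 46.8% lower and 10.5% higher, again with 0 members in either group. Over the 648 miRNAs the median log2 change was -0.87 from P1 to P7, -0.05 from P7 to P17 and -0.91 from P1 to P17. The 10 members had medians of -0.27, 0.20 and -0.24. From P1 to P17 the log2 changes of the 5p arms lay between -0.23 for miR-30e-5p and 0.68 for miR-30b-5p, at percentiles 68.4 and 86.0 of all miRNAs. Those of the 3p arms lay between -0.97 for miR-30b-3p and -0.24 for miR-30e-3p, at percentiles 48.0 and 68.2. Both extremes thus came from the miR-30b hairpin, whose 3p arm, at 0.512-fold, was just inside the 2-fold limit.

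**Figure D5:**
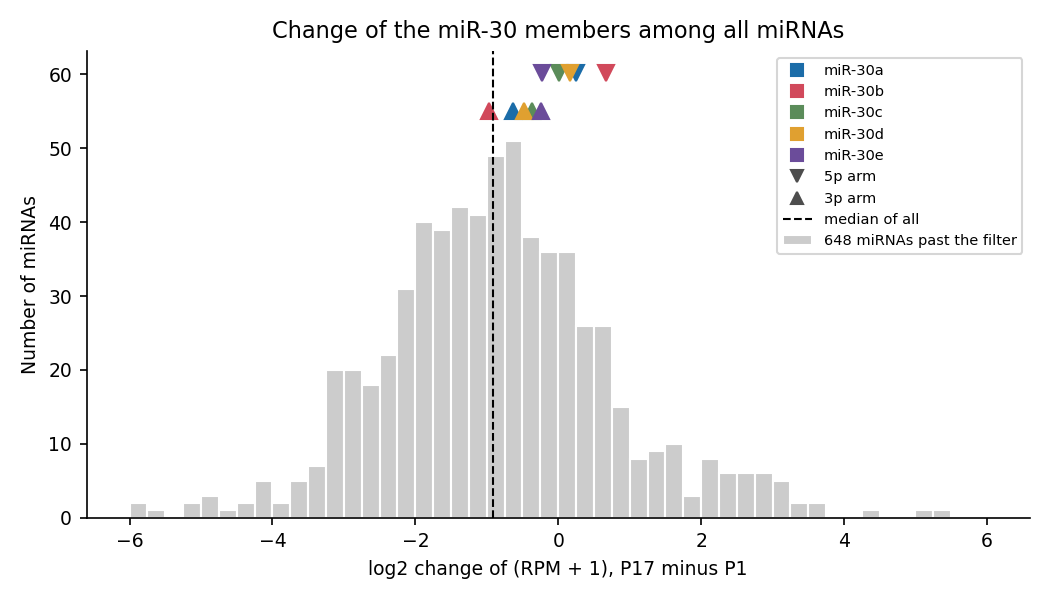
Histogram of the log2 change of (RPM + 1) from P1 to P17 for the 648 miRNAs past the filter (grey bars, number of miRNAs), with the 5p (upper row) and 3p (lower row) members marked above it and the median of all miRNAs as a dashed line. The 5p members lie between -0.23 and 0.68 and miR-30b-3p, at -0.97, is the only member left of the median of -0.91.

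The signs of these changes depended on the scaling. The 6 forms of the sensory cluster, miRNAs of photoreceptors and other sensory cells (miR-182, miR-183 and miR-96), took 7.85%, 30.6% and 30.2% of the miRNA reads in order of age. The summed 5p arms changed by -0.13 from P1 to P7 and by 0.22 from P7 to P17 in RPM, but by 0.83 and 0.31 with median-of-ratios size factors. From P1 to P17 their change was 0.09 in RPM and 1.14 with size factors, and positive under every scaling tried. The summed 3p arms changed by -0.43 in RPM and by 0.61 with size factors. With size factors 4 of 10 members, all of them 5p arms, were over 2-fold higher at P17, where 25.5% of the 648 miRNAs were, and 0 were over 2-fold lower, where 23.9% were. Relative to the median of all miRNAs, the change in RPM from P1 to P17 was 1.00 for the summed 5p arms and 0.48 for the summed 3p arms. These distances depended on the pseudocount. The median was -0.91 with 1 RPM added, -1.03 with 0.1 RPM and -0.60 with 5 RPM, while the changes of the sums hardly moved.

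Among the 1623 listed miRNAs with a sequence, miR-384-5p was the only one outside miR-30 found with the seed GUAAACA. It was at 140 RPM (133 to 147) at P1, 101 RPM (95.2 to 106) at P7 and 148 RPM (141 to 155) at P17. It added little to the summed 5p arms of miR-30, which made up 5.28% of all miRNA reads at P1 with it and 5.27% without it. Like miR-30a-5p, miR-30c-5p and miR-30d-5p, it was lowest at P7 in RPM. Over the 3 libraries, the miRNAs of at least 100 RPM whose steps lay closest to those of the summed 5p arms (Euclidean distance on the log2(RPM + 1) scale, 191 candidates) were miR-486a-5p and miR-486b-5p, which were listed with the same values and a distance of 0.0631. They were followed by let-7g-5p at 0.109, miR-181b-5p at 0.132 and miR-23b-3p at 0.208. Let-7g-5p was at 30463, 26506 and 29197 RPM and miR-181b-5p at 21144, 20576 and 22412 RPM at P1, P7 and P17. With 3 points such closeness is a description only.

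Larger changes occurred among other miRNAs known in vessels. Of 16 such miRNAs, among them miR-126a, miR-143, miR-221 and miR-23a, 15 passed the filter, and from P1 to P17 5 were over 2-fold higher and 5 over 2-fold lower, against 10.5% and 46.8% of all miRNAs. Their median log2 change was 0.03. Marker miRNAs of the cell types of the eye differed between the libraries too. The endothelial and mural markers are themselves part of the vessel list, so their sums are not separate evidence. Both arms of endothelial miR-126a summed to 1261, 3643 and 8530 RPM in order of age, and mural miR-143-3p and miR-145a-5p to 195, 376 and 1492 RPM. The neuronal markers miR-124-3p, miR-9-5p, miR-9-3p and miR-128-3p summed to 161438, 137678 and 95032 RPM. These 4 did not move alike, as from P1 to P17 1 was over 2-fold higher and 1 over 2-fold lower. Their median log2 change was -0.77, beside -0.91 over all 648 miRNAs. All sums of these lists are shares in RPM, and other scalings would shift them as they did the miR-30 sums. The photoreceptor markers miR-183-5p, miR-182-5p and miR-96-5p summed to 77854, 304394 and 301141 RPM, so that neither retinal class was absent. The pigment epithelium markers miR-204-5p and miR-211-5p summed to 15211, 7226 and 14334 RPM. From P1 to P17, 1 of these 2 was over 2-fold higher and their median log2 change was 1.28. In RPM their sum was lowest at P7, as were those of the blood, muscle, surface epithelium and lens, and vessel lists. The summed 5p arms of miR-30 were also lowest at P7 in RPM. With size factors, however, their log2 change from P1 to P7 was 0.83. Blood markers summed to at most 53.7 RPM, muscle markers to at most 240.1 RPM and markers of surface epithelium and lens to at most 648 RPM, and none of the markers of any list was at 0. Their part in the values of the miR-30 members was not tested, and in whole retina fewer cells of a type and less miRNA per cell cannot be told apart.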

How the data were processed

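Retinas of C57BL/6 mice (C57BL/6J in the paper's methods) at P1, P7 and P17 were profiled, with 1 pooled library per age. According to the paper's methods, adaptors and low-quality reads were removed and the rest aligned to mm10 with HISAT2, whereas the submitters' processing notes name FastQC and BWA. The annotation and the counting rule are not given in the sources used here. The deposited tables hold, per library and mature miRNA, a raw read count. Beside it the authors gave an RPM value, found to equal the count scaled to the sum of the listed miRNA counts. Groups were taken from the age in the labels.

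Levels are the deposited RPM, and changes are differences of log2(RPM + 1) over miRNAs averaging 1 RPM or more. Changes over 2-fold were counted without a p-value, as 1 library per age gives no spread between samples. Intervals are 95% Wilson (levels, shares), exact binomial (ratios) or Woolf (changes of ratios) intervals. A floor of 3 reads was used, 0.235 to 0.263 RPM. The members and lists were chosen with earlier results of these data known. Named miRNAs are the members, miR-30c-1-3p, miRNAs sharing the 5p seed, the 5 nearest in pattern and marker or vessel lists; miR-30f was added after its values were seen. Hairpin positions are from GENCODE vM21. Fold calls and the exact binomial and Woolf intervals were checked on simulated counts with counting error only, which hold no spread between animals. The Wilson intervals were not checked in this way. Alternatives were other scalings (size factors from 644 miRNAs, TMM, 2 reduced totals), pseudocounts, filters, folds and arms. TMM factors came from edgeR 4.0.16 in R 4.3.3, and all else from Python 3.11.15 with pandas 2.3.3, numpy 2.4.6, matplotlib 3.10.9 and scipy 1.17.1.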

Additional observations from a re-analysis of the deposited data

How the results depend on the processing

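The summed 5p arms changed from P1 to P7, P7 to P17 and P1 to P17 by 0.83, 0.31 and 1.14 with median-of-ratios size factors, by 0.86, 0.28 and 1.14 with TMM factors, by 0.50, -0.024 and 0.47 with a total lacking the 10 most abundant miRNAs of any library, and by 0.28, 0.21 and 0.49 with a total lacking miR-183, miR-96 and miR-182, against -0.13, 0.22 and 0.09 in RPM. The summed 3p arms, tried after the values were seen, changed from P1 to P17 by 0.61, 0.62, -0.052 and -0.031 in that order, against -0.43. Members over 2-fold higher at P17 numbered 4, 4, 1 and 1, where 25.5%, 25.5%, 14.7% and 15% of the 648 miRNAs were, against 0 in RPM. None was over 2-fold lower, where 23.9%, 23.9%, 40.9% and 38.3% were. A fold criterion of 1.5 in RPM gave 1 member higher and 2 lower, beside 15.1% and 59.9% of all miRNAs. In RPM, pseudocounts left the numbers over 2-fold at 0 and the totals within counting error. Filters and a fold of 4 could not change these numbers. All members averaged more than 10 RPM, and none passed 2-fold. Each of these scalings shifts all miRNAs of a library alike, which leaves arm ratios and shares within the family as they were. The log2 change of the ratio of miR-30a to the chromosome 15 hairpins was 0.052 from 5p and 0.17 from 3p arms, against -0.02, and that of miR-30e 0.56 from 3p arms, against -0.41. Of 180 other values for single members, 104 lay outside the interval of counting error. From P1 to P17, 4 of 10 members were above 0 in RPM, 10 with either set of factors and 7 with either reduced total. The cause of these shifts was not tested. Depth limits the forms with few reads, such as miR-30c-1-3p with 269 reads at P17 and miR-30f with none there. No paired analysis was possible because only a single library exists per age.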
